A study of Mus musculus with 12 samples.

Results

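Myb, the genes on either side of it and its paralogs were followed through 4 groups of induced MEL cells. The set held 5 genes: Myb, its neighbours Hbs1l and Ahi1, and the paralogs Mybl1 and Mybl2. The rule that names them uses chromosome position and family and no measured value. The members and the gene lists used below were still chosen with earlier results of these data known. The members were 5 of the 37991 genes counted. All 5 passed the filter on low counts that left 12837 genes for testing.

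MEL is a mouse erythroleukaemia line that can be induced to mature toward red cells in culture, and all 12 libraries came from induced cells. The control group was WT MEL cells. The KD group carried the label LDB1 KD. The delta45 group was the knockdown with the Ldb1 delta 4/5 construct, and the FL group was the knockdown with the full-length Ldb1 construct. Each group had 3 libraries of polyadenylated RNA. The knockdown was thus shared by KD, delta45 and FL, and control carried neither knockdown nor construct. The inducing agent, the knockdown reagent, the promoter of the constructs, what delta 4/5 removes and whether a line was 1 clone are not given by the labels. The labels also leave unsaid whether replicates were grown separately, so each p-value reflects the spread of these libraries alone, and that spread may be technical.

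MYB is a transcription factor that keeps blood progenitors dividing, and its level normally falls as red cell precursors mature. LDB1 is an adaptor that joins GATA1, TAL1 and LMO2 on DNA and brings distant enhancers to promoters, and erythroid enhancers bound by this complex lie in the interval between Myb and Hbs1l. MYBL2 (B-MYB) acts in dividing cells, where it joins the MuvB complex at promoters of late cell cycle genes, and MYBL1 (A-MYB) is best known from male germ cells. HBS1L frees stalled ribosomes together with pelota, and AHI1 is a protein of the transition zone at the base of the primary cilium.

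Levels are given as CPM, a gene's reads per 1000000 gene reads of the library after TMM scaling. Changes are log2 differences ± SE from edgeR's quasi-likelihood fit of all 12 libraries, and a gene was called changed at a Benjamini-Hochberg adjusted p under 0.05 over all genes tested. Gene reads ranged from 8783970 to 20464959 per library. Reads aligned to several places, which were not counted to genes, made up 38.69 to 39.22% in delta45 and 42.26 to 53.31% elsewhere, and the part of this in the results was not tested. Ldb1 followed the labels in every library: KD held 97.1 to 159 CPM, control 637 to 773, delta45 750 to 781, and FL 3210 to 3696. Ldb1 mRNA thus differed between delta45 and FL, and construct reads cannot be told apart from those of the endogenous gene. Erythroid markers were read in all groups, 12 of 12, and their summed level was lowest in KD (2840 to 5343 CPM) and delta45 (4200 to 4671), higher in control (12220 to 12463) and highest in FL (28163 to 36239). Of 5 mast and basophil markers, Ms4a2, Mcpt8 and Tpsb2 had no reads in any group, and the list summed to 8.51 CPM at most. Of 10 myeloid markers 1 to 3 had no reads in a group, and they summed to 65.4 to 81.2 CPM in control, 27.9 to 66.7 for KD, 8.72 to 9.99 for delta45 and at most 12.9 for FL. Of 7 lymphoid markers 1 to 4 had no reads in a group, and they summed to 33.1 to 45.4 CPM in KD against 5.56 to 16.2 elsewhere. Of 6 stromal and endothelial markers 2 or 3 had no reads in a group, and they summed to 8.32 CPM at most. The part of these lists in the results was not tested. The megakaryocyte markers summed to 179 to 198 CPM in delta45, 798 to 842 in KD, 837 to 931 in control and 2814 to 2920 in FL. Single genes of that list went both ways. Of 6 tested, 2 rose and 2 fell in FL against KD (26.3% and 31.7% of all tested genes), with a median log2 change of 0.08. In FL against control 3 rose and 2 fell (28.1% and 31.2% of all tested genes). In bulk RNA, fewer cells of a type and less RNA per cell cannot be told apart. The KD libraries were the least alike, with correlations of log2 CPM of 0.948 to 0.978 against 0.985 or more between libraries of any other group. KD replicate 1 stood apart for several members, and values without it follow beside the members and lists compared with KD.

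Positions are from GENCODE M21 on GRCm38, whereas the submitters' processing notes name mm9. The locus read Ahi1, Myb, Hbs1l along chromosome 10. Ahi1 (ENSMUSG00000019986) lay on the plus strand at chr10:20952547-21080429. Myb (ENSMUSG00000019982) lay on the minus strand at chr10:21124935-21160984, and Hbs1l (ENSMUSG00000019977) on the plus strand at chr10:21295979-21368898. The starts of Myb and Hbs1l faced each other across 135.0 kb, the interval of the enhancers, while the ends of Ahi1 and Myb were 44.5 kb apart. Mybl1 (ENSMUSG00000025912) lay on the minus strand at chr1:9667415-9700209 and Mybl2 (ENSMUSG00000017861) on the plus strand at chr2:163054687-163084688. Annotated antisense genes overlap exons of Myb (Gm26577) and of Hbs1l (4930455C13Rik). The library kit does not mark strand, so reads of a gene and of its antisense partner cannot be told apart.

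The 120 bases before the RefSeq start of Myb and of Mybl2 are shown because these 2 members had the largest log2 falls in FL against KD, and those of Hbs1l because it sits across the enhancer interval from Myb. The sequences are from RefSeq on GRCm38.p6, written 5′ to 3′ on each gene's own strand, and capitals mark TTGGCGGGA in the Myb and Mybl2 windows and GGCGGGA in the Hbs1l window. Myb is at chr10:21160985-21161104 (minus strand), Mybl2 at chr2:163054515-163054634 (plus strand) and Hbs1l at chr10:21295859-21295978 (plus strand).
Myb: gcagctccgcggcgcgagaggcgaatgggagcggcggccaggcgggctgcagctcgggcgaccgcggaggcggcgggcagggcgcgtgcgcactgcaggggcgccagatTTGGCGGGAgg
Mybl2: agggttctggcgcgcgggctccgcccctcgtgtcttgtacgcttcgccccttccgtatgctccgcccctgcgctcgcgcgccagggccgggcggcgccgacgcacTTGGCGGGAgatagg
Hbs1l: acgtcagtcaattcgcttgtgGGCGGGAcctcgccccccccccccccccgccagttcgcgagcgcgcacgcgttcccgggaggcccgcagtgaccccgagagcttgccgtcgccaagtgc

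The 9 letters TTGGCGGGA, of the kind that E2F proteins bind, began 11 bases before the start in Myb and 15 bases before it in Mybl2. They were chosen after both sequences and the results on both genes had been seen. Over the 250 bases before the start and on both strands, 73 of 32851 RefSeq promoters (0.222%) held them. The Hbs1l promoter and the 2 annotated Ahi1 promoters did not, and the table had no entry for Mybl1. The shorter GGCGGGA, which lies inside the 9 letters, was in 9.75% of promoters, and in Hbs1l it began 99 bases before the start. The MYB core AACNG was in 74.2% of promoters, with 2 matches each in Mybl2 and Hbs1l and 0 in Myb. GATA letters, meaning AGATAA or TGATAA and likewise AGATAG or TGATAG, were in 26.5% of promoters. They matched 1 time in Mybl2, where AGATAG began 7 bases before the start and shared 1 base with the E2F-like letters. They matched 1 time in the second Ahi1 promoter and 0 times in Myb and Hbs1l. A match describes letters and shows no binding.

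Myb was far lower in FL cells than in the other 3 groups. Its levels were 56.9, 58.8 and 67.6 CPM in control, 108, 55.9 and 35.3 CPM in KD, 98.8, 92.1 and 90.1 CPM in delta45, and 2.71, 3.02 and 2.06 CPM in FL. The FL values rest on 26, 26 and 35 reads. All 3 FL libraries lay below all 9 others, the control and delta45 libraries did not overlap, and the KD libraries spread across both. Against KD, Myb in FL was 26.3-fold lower (log2 change -4.72 ± 0.37, edgeR adjusted p = 3.8e-07). Against delta45 it was 37.0-fold lower (-5.21 ± 0.37, edgeR adjusted p = 1.1e-07), and against control 24.1-fold lower (-4.59 ± 0.37, edgeR adjusted p = 3.74e-07). Of the 12837 genes tested, 18 had a lower log2 change than Myb in FL against delta45, 93 in FL against KD and 257 in FL against control. The summed level of the erythroid markers moved the other way in FL against the other 3 groups. In KD against control 9 of 12 erythroid markers fell (24.1% of all tested genes did), while Myb was not called changed (0.12 ± 0.28, edgeR adjusted p = 0.743). The part of the markers in the Myb result was not tested.

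**Figure D1:**
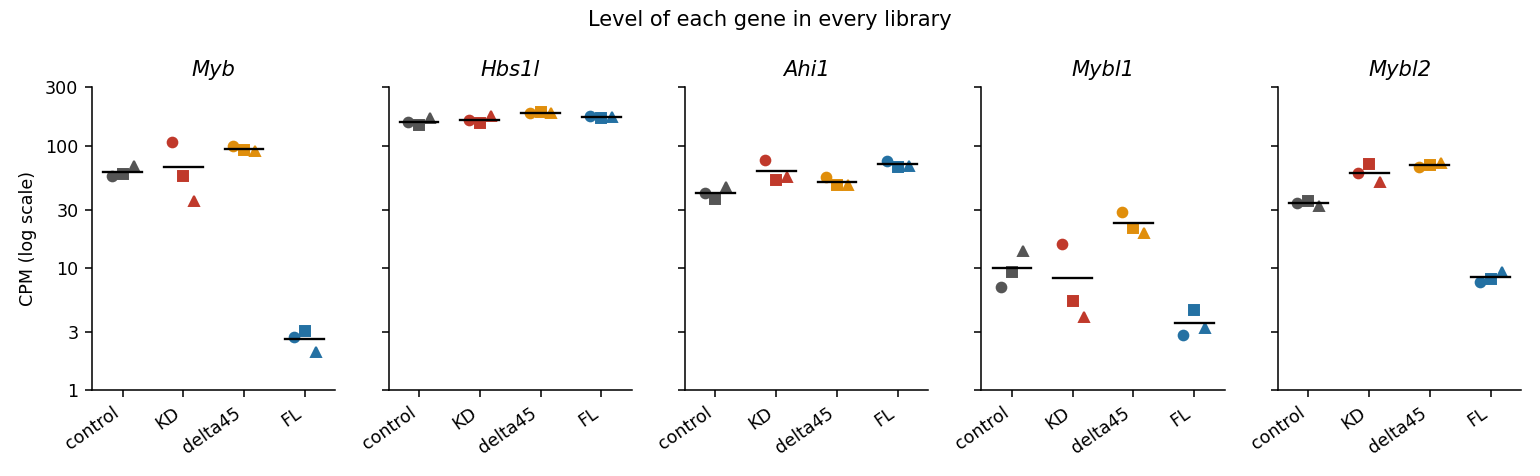
CPM on a log axis for Myb, Hbs1l, Ahi1, Mybl1 and Mybl2 in each of 12 libraries; circles, squares and triangles are replicates 1, 2 and 3, and bars are group means. Myb in FL lies at 2.06 to 3.02 CPM against 35.3 CPM or more elsewhere, while Hbs1l stays within 147.5 to 187 CPM.

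The order of Myb levels was delta45, KD, control, FL, with group means of 93.7 ± 4.56, 66.4 ± 37.5, 61.1 ± 5.74 and 2.60 ± 0.491 CPM (SD, n = 3). The first 3 groups were not separated by the test in the fit of all 12 libraries. KD differed from control by 0.12 ± 0.28 (95% interval -0.49 to 0.74, edgeR adjusted p = 0.743). The delta45 group differed from KD by 0.49 ± 0.28 (edgeR adjusted p = 0.148) and from control by 0.62 ± 0.28 (0.00 to 1.23, edgeR adjusted p = 0.073). With only delta45 and control in the fit, their difference was called (0.61 ± 0.09, edgeR adjusted p = 0.000253). A miss of the threshold does not show that the 3 groups were alike.

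KD replicate 1 decided how Myb compared between KD and the other groups. Without it, Myb in KD was lower than control (-0.43 ± 0.17, edgeR adjusted p = 0.0467), reversing the sign, and delta45 was above KD (1.07 ± 0.17, edgeR adjusted p = 0.000133). Without KD replicate 3 the delta45 difference was 0.18 (edgeR adjusted p = 0.471). The difference of delta45 from control, in a fit where all libraries share 1 estimate of the spread, became a call without KD replicate 1 (0.64, edgeR adjusted p = 0.0018) or KD replicate 3 (0.61, edgeR adjusted p = 0.0112). The fall in FL against KD was -4.11 without KD replicate 1 and was still called (edgeR adjusted p = 5.14e-09). Across KD replicates 1, 2 and 3 the mean log2 level of the erythroid markers relative to control was -1.98, -1.31 and -0.87. Ldb1 in the same libraries was 159, 132 and 97.1 CPM. Myb was thus highest in the KD library with the lowest erythroid markers and the most remaining Ldb1. The part of either in the spread was not tested.

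In FL against KD, genes that work with MYB or are known targets of it did not all change in 1 direction. Of 16 cofactors and modifiers of MYB, 15 were tested, and in FL against KD 6 rose and 2 fell (26.3% and 31.7% of all tested genes did so), with a median of 0.35 against -0.06 over all genes. Leaving out KD replicate 1, 7 rose and 2 fell. Pim1, a kinase that phosphorylates MYB, rose from 131 ± 14.6 to 1043 ± 3.15 CPM (2.99 ± 0.13, edgeR adjusted p = 3.47e-09). The kinase genes Nlk (1.18 ± 0.12) and Hipk2 (2.31 ± 0.34) also rose. In FL against control 13 of the 15 tested cofactors and modifiers rose and 1 fell (28.1% and 31.2% of all tested genes). Their median there was 0.87 against -0.01 over all genes. Of 15 blood cell targets of MYB, 11 were tested, and in FL against KD 3 rose and 5 fell, with a median of -0.70, or 4 and 6 without KD replicate 1. Cxcr4, a chemokine receptor, fell from 59.2 ± 8.38 to 5.06 ± 0.148 CPM (-3.54 ± 0.14, edgeR adjusted p = 2.67e-09). Ccne1 (cyclin E1, -1.72 ± 0.13) and Ada (adenosine deaminase, -1.64 ± 0.13) fell, whereas the survival gene Bcl2 rose (1.68 ± 0.17). In FL against delta45, Myc, a growth regulator, was lower (-1.95 ± 0.16, edgeR adjusted p = 3.57e-07). Its means were 112 ± 2.73 CPM in control, 193 ± 46.6 in KD, 458 ± 34.3 in delta45 and 118 ± 13.2 in FL. Myc in FL thus lay near control, and delta45 was above control (2.03 ± 0.16, edgeR adjusted p = 2.47e-07). Kit, Cd34, Elane and Gfi1, with 63, 4, 5 and 13 reads over all libraries, did not pass the filter.

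The factors that act at the erythroid enhancers of Myb, Ldb1 among them, included 14 tested genes, and in FL against KD 7 rose and 3 fell, where 26.3% of all tested genes rose and 31.7% fell. The median was 0.44 against -0.06 over all genes, and without KD replicate 1, 7 rose and 4 fell. These counts and the median include Ldb1, whose rise was built into the design by the construct. Besides the supplied Ldb1, the corepressor Cbfa2t3 (ETO2) rose from 198 ± 24.4 to 740 ± 34.7 CPM (1.90 ± 0.12, edgeR adjusted p = 4.72e-08). Gfi1b, a repressor of the same complex, fell (-1.83 ± 0.17), as did the LDB1 partner Ssbp3 (-1.13 ± 0.11). Gata2, high in progenitors, was 12.9 ± 0.767 CPM in control, 58.7 ± 8.96 in KD, 32.9 ± 3.02 in delta45 and 58.7 ± 3.15 in FL. Between FL and KD, where Myb was 26.3-fold lower, Gata2 differed by 0.00 ± 0.12 (95% interval -0.26 to 0.27). These measurements cover mRNA alone, and binding at the enhancers was not measured here.

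Hbs1l, the neighbour across the enhancer interval, hardly varied. Its levels were 157, 147.5 and 167 CPM in control, 162, 154 and 173 CPM in KD, 186, 187 and 185 CPM in delta45, and 176, 168 and 173 CPM in FL. The order of the means was delta45 (186 ± 1.35), FL (172 ± 3.76), KD (163 ± 9.77) and control (157 ± 9.83 CPM), with no call between groups next to each other. The highest group mean was 1.18 times the lowest, against 36.1 times for Myb. Delta45 lay above all other libraries without overlap, and the remaining groups lay close together, with all FL libraries just above control. The difference of delta45 from control, 0.24 ± 0.09 (edgeR adjusted p = 0.0283), was the 1 change of Hbs1l that was called. That call was lost without control replicate 1 (0.24, edgeR adjusted p = 0.0748), without control replicate 2 (0.19, edgeR adjusted p = 0.118) or without delta45 replicate 2 (0.26, edgeR adjusted p = 0.0505). Between FL and KD the difference was 0.08 ± 0.09 (95% interval -0.11 to 0.27), and it was -0.19 when only library totals were used for scaling and 0.14 without KD replicate 1. Scaling by totals moved the median of all tested genes by -0.27 in FL against KD, -0.28 in FL against delta45 and -0.22 in FL against control, and by 0.05 or less in the other comparisons. Relative to that shift Hbs1l stayed near the middle of all genes. In FL against KD, 7313 of the tested genes had a lower log2 change than Hbs1l and 5523 had a higher one.

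Of 17 genes that act with HBS1L in ribosome rescue and decay, all were tested, and in FL against KD 12 rose and 2 fell, against 26.3% and 31.7% of all tested genes, with a median of 0.43 against -0.06. With scaling by library totals 5 rose, and of the 12837 tested genes 2048 rose with that scaling, against 3382 with TMM. Leaving out KD replicate 1, 13 of the list rose and 2 fell. Gtpbp1, a relative of HBS1L, rose by 1.02 ± 0.09 (edgeR adjusted p = 1.03e-06) and Skiv2l, a helicase of the exosome, by 0.77 ± 0.09. In delta45 against KD 9 rose and 0 fell by edgeR (29.2% and 30.7% of all tested genes), with 1 lower at an unadjusted p under 0.05 and 1 by DESeq2. The counts were 10 and 0 without KD replicate 1. The ribosome recycling gene Abce1 rose there by 1.56 ± 0.21. Pelo, the partner of HBS1L, was lower in FL than in delta45 (-0.77 ± 0.13, edgeR adjusted p = 0.000239).

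Ahi1, the neighbour on the other side, was higher in FL than in control or delta45 while Myb was lower there. Its levels were 40.8, 36.9 and 45.7 CPM in control, 76.8, 52.3 and 55.2 CPM in KD, 55.2, 47.5 and 47.8 CPM in delta45, and 75.5, 66.3 and 68.4 CPM in FL. The order of the means was FL (70.1 ± 4.84), KD (61.4 ± 13.3), delta45 (50.2 ± 4.34) and control (41.1 ± 4.38 CPM). All FL libraries lay above all delta45 and control libraries, and the KD libraries overlapped both FL and delta45. Ahi1 rose 1.49-fold in KD against control (0.58 ± 0.15, edgeR adjusted p = 0.00574), and without KD replicate 1 the change was 0.38 ± 0.12 (edgeR adjusted p = 0.0177). In FL it was 1.70-fold above control (0.77 ± 0.15, edgeR adjusted p = 0.000646) and it exceeded delta45 by a log2 difference of 0.48 ± 0.15 (edgeR adjusted p = 0.014). The difference from delta45 was 0.21 (edgeR adjusted p = 0.296) when scaled by library totals, and 0.43 (edgeR adjusted p = 0.0518) without FL replicate 1.

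Adjacent groups in that order were not separated by the test. FL differed from KD by 0.19 ± 0.15 (edgeR adjusted p = 0.291), a difference of -0.09 with library totals and of 0.44 without KD replicate 1 (edgeR adjusted p = 0.00692). Delta45 differed from KD by -0.29 ± 0.15 (edgeR adjusted p = 0.0984), or -0.08 without KD replicate 1. Delta45 differed from control by 0.28 ± 0.15 (edgeR adjusted p = 0.108), which became a call without KD replicate 1 (0.31, edgeR adjusted p = 0.0239). Of 17 partners of AHI1 at the cilium transition zone, 14 were tested. In KD against control 9 rose and 1 fell, where 25.6% of all tested genes rose and 24.1% fell, with a median of 0.53 against 0.02. By edgeR 0 rose and 9 fell in FL against KD, where 26.3% and 31.7% of all genes did, with a median of -0.56 against -0.06. DESeq2 and an unadjusted p under 0.05 also gave 0 that rose. Without KD replicate 1 these counts were 8 higher and 1 lower in KD against control, and 1 higher and 8 lower in FL against KD. Hap1, which encodes a protein that binds huntingtin and AHI1, had the largest change of the list in both comparisons: it was 131 ± 14.7 CPM in control, 549 ± 255 in KD, 139 ± 7.86 in delta45 and 70.9 ± 3.26 in FL. Without KD replicate 1 its changes were 2.40 in KD against control and -3.22 in FL against KD. Ahi1 itself was not among the genes that fell in FL against KD.

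Mybl2 was the paralog with the clearest pattern: up in KD and delta45, down in FL. Its levels were 34.2, 35.3 and 31.9 CPM in control, 59.5, 70.1 and 49.996 CPM in KD, 66.6, 69.4 and 71.7 CPM in delta45, and 7.71, 8.14 and 9.18 CPM in FL. No library of KD or delta45 overlapped control, and all FL libraries lay below control. Against KD, FL was 7.12-fold lower (-2.83 ± 0.14, edgeR adjusted p = 8.75e-09). Against delta45 it was 8.23-fold lower (-3.04 ± 0.14, edgeR adjusted p = 3e-09), and against control 4.02-fold lower (-2.01 ± 0.14, edgeR adjusted p = 9.31e-08). Mybl2 rose 1.77-fold in KD against control (0.82 ± 0.13, edgeR adjusted p = 0.000163) and 2.05-fold in delta45 against control (1.03 ± 0.13, edgeR adjusted p = 1.23e-05). Without KD replicate 1 the change in FL against KD was -2.77 and that in KD against control 0.83. These 5 calls were kept in every alternative fit run, those without each library in turn among them. Delta45 and KD, neighbours at the top of the order, differed by 0.21 ± 0.12 (95% interval -0.06 to 0.48, edgeR adjusted p = 0.158), or by 0.36 without KD replicate 2 (edgeR adjusted p = 0.0247) and by 0.09 without KD replicate 3 (edgeR adjusted p = 0.494).

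The 13 genes of MuvB and DREAM, the complexes that MYBL2 joins or replaces, held 4 that rose and 5 that fell in FL against KD, near the 26.3% and 31.7% of all tested genes, with a median of -0.15 against -0.06. Leaving out KD replicate 1, 4 rose and 4 fell. In KD against control 3 rose and 5 fell, or 1 and 6 without KD replicate 1. Foxm1, a forkhead factor that follows MYBL2 onto MuvB promoters, fell from 66.1 ± 6.43 to 13.8 ± 2.41 CPM (-2.27 ± 0.15, edgeR adjusted p = 6.91e-08). Rbl1 (p107) fell by 1.05 ± 0.20 on the log2 scale, while the E2F partner Tfdp2 rose by 1.61 ± 0.17. Late cell cycle genes bound by MYBL2 and MuvB numbered 23. All were tested, and by edgeR all 23 fell in FL against KD, against delta45 and against control, with medians of -1.84, -2.28 and -2.42 against -0.06, -0.01 and -0.01 over all genes. Among all tested genes 31.7%, 27% and 31.2% fell in these comparisons. Tpx2, a spindle factor, fell from 166 ± 5.78 to 46.4 ± 2.49 CPM in FL against KD (-1.84 ± 0.09, edgeR adjusted p = 8.75e-09), and Birc5 (survivin) fell by 2.18 ± 0.13. In KD against control 16 of the 23 fell and 0 rose (24.1% and 25.6% of all tested genes), with a median of -0.66, while Mybl2 rose in the same comparison. No other direction appeared by DESeq2 or at an unadjusted p under 0.05 in these 4 comparisons. Without KD replicate 1, 19 fell and 0 rose in KD against control, and 23 fell and 0 rose in FL against KD. In delta45 against KD 16 rose and 0 fell by edgeR (29.2% and 30.7% of all genes), with 1 lower at an unadjusted p under 0.05 and 1 by DESeq2, and Mybl2 was not called different. The counts there were 16 and 1 without KD replicate 1, and 1 also fell without FL replicate 1. In delta45 against control 2 rose and 11 fell (31.9% and 32.5% of all genes), with a median of -0.25, while Mybl2 rose. The erythroid markers moved opposite to this list in FL against KD, where 9 of 12 rose, but with it in KD against control, where 9 of 12 fell, and their part was not tested.

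**Figure D2:**
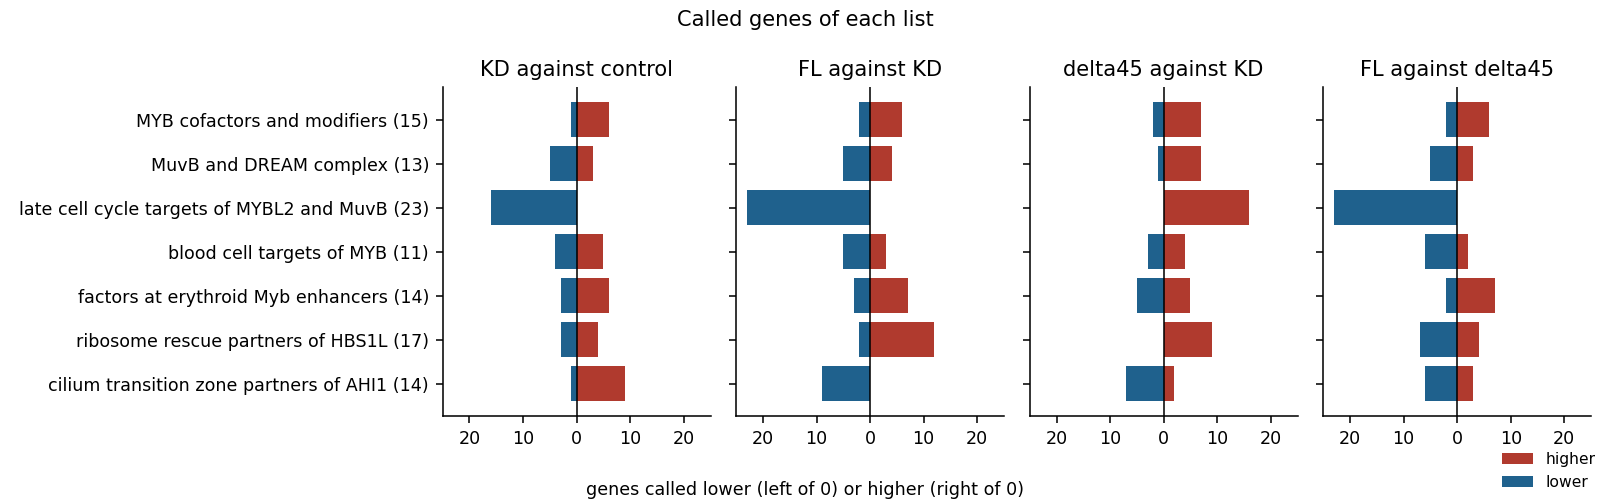
Number of genes called higher (red, right of 0) or lower (blue, left of 0) in 7 gene lists, with the tested genes of each list in brackets, for 4 comparisons. The late cell cycle list has 23 of 23 lower in both FL comparisons shown and 16 of 23 higher in delta45 against KD.

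Mybl1 had the lowest level per kb of the members in control, KD and delta45. Its levels were 6.97, 9.33 and 13.6 CPM in control, 15.7, 5.32 and 3.94 CPM in KD, 28.5, 21.3 and 19.5 CPM in delta45, and 2.81, 4.53 and 3.24 CPM in FL. Delta45 lay above every other library, FL lay below control, and KD replicate 1 exceeded all control libraries while the other KD libraries lay below them. In delta45 it was 2.29-fold above control (1.19 ± 0.40, edgeR adjusted p = 0.0197) and 2.72-fold above KD (1.45 ± 0.41, edgeR adjusted p = 0.00832; 2.36 ± 0.30 without KD replicate 1). In FL it was 6.61-fold below delta45 (-2.73 ± 0.45, edgeR adjusted p = 0.0002) and 2.89-fold below control (-1.53 ± 0.45, edgeR adjusted p = 0.0107).

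The order of the means was delta45 (23.1 ± 4.78), control (9.98 ± 3.38), KD (8.32 ± 6.42) and FL (3.53 ± 0.897 CPM), and control and KD were not separated. Several calls on Mybl1 hung on single libraries. FL against KD gave -1.28 ± 0.46 (edgeR adjusted p = 0.0285) although the libraries overlapped, and this was -0.34 without KD replicate 1 (edgeR adjusted p = 0.397). It also missed the threshold without FL replicate 1 (-1.15, edgeR adjusted p = 0.0921) or FL replicate 3 (-1.21, edgeR adjusted p = 0.0865). KD against control was -0.25 ± 0.42 (95% interval -1.15 to 0.65, edgeR adjusted p = 0.638), and without KD replicate 1 it was -1.15 ± 0.31 (edgeR adjusted p = 0.00599). It turned to 0.09 without KD replicate 3 and to 0.05 without control replicate 3. The call in FL against control was lost without control replicate 3 (-1.17, edgeR adjusted p = 0.0632). The call in delta45 against control was lost without control replicate 1 (0.99, edgeR adjusted p = 0.0807), control replicate 2 (1.14, edgeR adjusted p = 0.0601) or delta45 replicate 1 (1.04, edgeR adjusted p = 0.0684).

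So many genes differed between the groups that the number of members called says little by itself. In KD against control 2 of 5 members rose and 0 fell, where 49.7% of all tested genes were called (25.6% higher, 24.1% lower). In FL against KD 3 fell and 0 rose (58% of all genes were called, 26.3% higher and 31.7% lower). In delta45 against KD 1 rose and 0 fell (59.9%, or 29.2% higher and 30.7% lower), and in FL against delta45 1 rose and 3 fell (52.8%, or 25.8% higher and 27% lower). In FL against control 1 rose and 3 fell (59.3%, or 28.1% higher and 31.2% lower), and in delta45 against control 3 rose and 0 fell (64.4%, or 31.9% higher and 32.5% lower). Each 0 among these edgeR counts was also 0 by DESeq2 and at an unadjusted p under 0.05. The libraries of all 5 members did not overlap in FL against delta45, FL against control and delta45 against control, as was so for 69%, 69.8% and 74.5% of all tested genes. In the other comparisons 2 members did not overlap, against 50.7% of genes for KD against control, 59.7% for FL against KD and 63.5% for delta45 against KD. These comparisons share groups, so their counts are not independent of each other. The share of all calls that were higher also moved with scaling: in FL against KD it was 45.4% with TMM and 26.7% with library totals, in FL against delta45 48.8% and 29.2%, and in FL against control 47.4% and 31.8%.

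**Figure D3:**
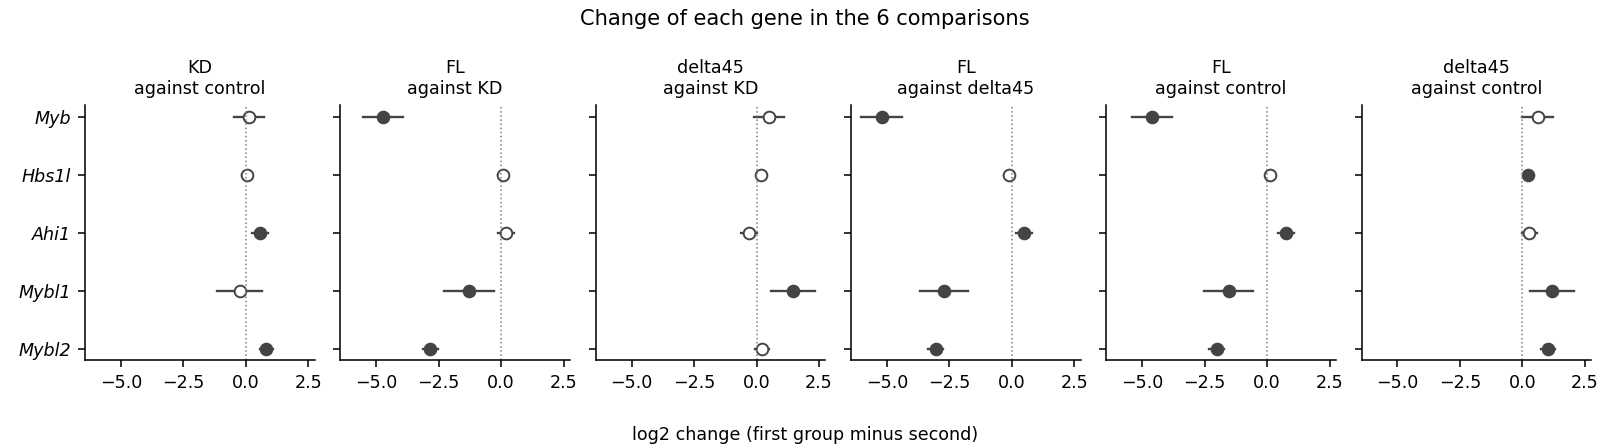
Log2 change of each member in 6 comparisons, first group minus second; points are edgeR estimates, lines are 95% intervals, and filled points are called at an adjusted p under 0.05. Myb, Mybl1 and Mybl2 are left of 0 in each of the 3 FL comparisons, while Hbs1l lies within 0.24 of 0 in every panel; with library totals as scaling the Hbs1l signs in FL against KD and against control and the Ahi1 sign in FL against KD turn negative.

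Since the locus genes share each library, the ratio of Myb reads to those of another member needs no scaling between libraries. For every 100 reads of Hbs1l there were 38.8 reads of Myb in control, 36.7 in KD, 50.4 in delta45 and 1.52 in FL (geometric means). Per library, the log2 ratio to Hbs1l ran from -6.37 to -5.77 in FL, from -2.30 to -0.58 in KD, from -1.46 to -1.31 in control and from -1.03 to -0.91 in delta45. The FL libraries lay below all others, and the wide KD range covered control and delta45. For every 100 reads of Ahi1 there were 149 reads of Myb in control, 98.7 in KD, 187 in delta45 and 3.73 in FL. An exact permutation test over all 369600 assignments of the 12 libraries to 4 groups found unequal ratios between the groups for Hbs1l (adjusted p = 0.011) and Ahi1 (adjusted p = 0.000519). The ratio of Myb to Mybl1 (exact permutation adjusted p = 0.000519) and to Mybl2 (exact permutation adjusted p = 0.0032) was also unequal. The adjustment was Benjamini-Hochberg over these 4 ratios. The 3 FL libraries lay below the other 9 for each of the 4 ratios, the paralogs included. For pairs of groups of 3, such a two-sided test cannot give a p under 0.1, so pairs are described by overlap alone.

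**Figure D4:**
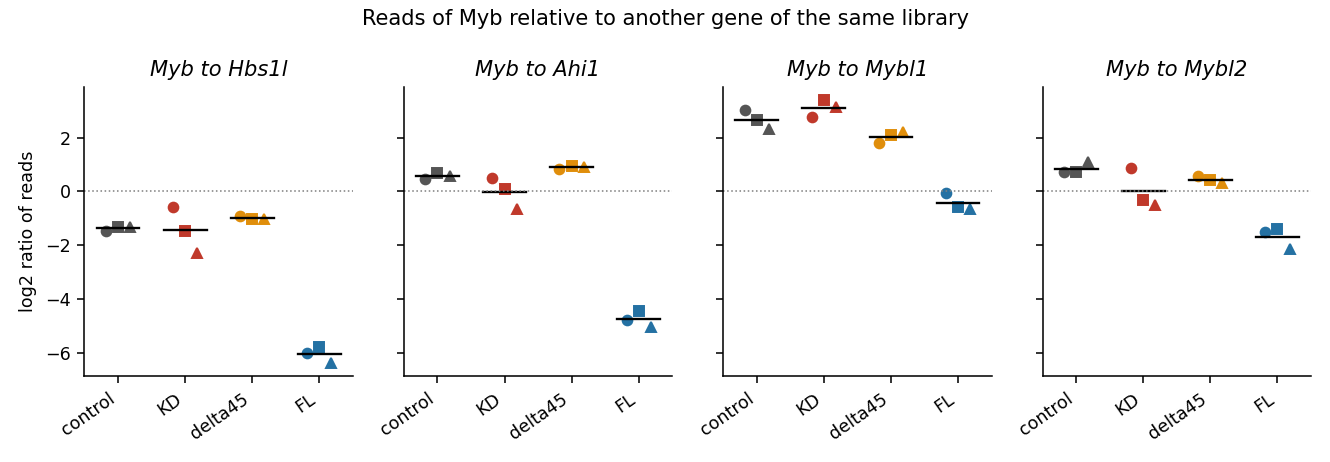
Log2 ratio of Myb reads to reads of Hbs1l, Ahi1, Mybl1 and Mybl2 in the same library (0.5 reads added to each); circles, squares and triangles are replicates 1, 2 and 3 and bars are group means. In all 4 panels the 3 FL libraries lie below the other 9, at -6.37 to -5.77 for Hbs1l and -2.14 to -1.41 for Mybl2.

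Divided by annotated exon length, the members could be ranked within a group. Hbs1l had the highest level per kb in every group, from 26.0 ± 1.62 CPM per kb in control to 30.7 ± 0.224 in delta45. In control Mybl2 (7.30 ± 0.373), Myb (6.84 ± 0.642) and Ahi1 (5.84 ± 0.623 CPM per kb) followed, with Mybl2 and Myb closer together than the SD of Myb, and Mybl1 was last at 1.85 ± 0.626. In FL the order was Ahi1 (9.95 ± 0.688), Mybl2 (1.80 ± 0.163), Mybl1 (0.653 ± 0.166) and Myb (0.291 ± 0.055 CPM per kb). Myb went from the third place in control to the last in FL. Summed over Myb, Mybl1 and Mybl2, the family stood at 16.0 ± 0.974 CPM per kb in control, 21.9 ± 6.19 in KD, 29.7 ± 0.871 in delta45 and 2.74 ± 0.231 in FL. Myb made up 42.7 ± 1.67% of that sum in control, 32.3 ± 9.71% in KD, 35.3 ± 0.717% in delta45 and 10.6 ± 2.14% in FL. Mybl2 made up 45.8 ± 4.60% in control and 65.7 ± 5.40% in FL. The exon lengths come from an annotation other than the authors', so ranks between genes and shares of the family sum are approximate.

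The genes whose profile over the 12 libraries was most like that of each member were found among 9867 candidates by the root mean square difference of log2 CPM, each gene centred on its mean. For Myb they were Klhl6 (0.56), Tgfbr3 (0.572) and Nos1 (0.649). Klhl6 had means of 11.8 CPM in control, 8.14 in KD, 7.96 in delta45 and 0.47 in FL. Mybl2 was at a difference of 1.03 from Myb, Mybl1 at 1.39, Hbs1l at 2.11 and Ahi1 at 2.31, so the genes beside Myb were less like it in profile than its paralogs on other chromosomes. Mybl1 itself was nearer to Mybl2 (0.862), Hbs1l (1.07) and Ahi1 (1.25) than to Myb. For Mybl2 the most alike were Rad54l (0.19), a gene of recombination repair, and Stmn1 (0.193), a regulator of microtubules. For Mybl1 they were Knl1 (0.372), of the kinetochore, and Atad5 (0.387), which unloads the replication clamp. For Hbs1l they were Mfn1 (0.0689) and Crlf3 (0.0867), and for Ahi1 Snx4 (0.134) and Tlk2 (0.14). The difference is small for genes that vary little, so values for different members are not comparable.

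Few of the genes nearest to the locus had enough reads to compare. On the Ahi1 side the nearest gene, Pde7b (a phosphodiesterase), was scarce, with 5, 13 and 8 reads over control, KD and delta45, and had 79 reads in FL (2.60 ± 0.44 against KD, edgeR adjusted p = 0.000239). The pseudogene Gm17230, next to it, was higher in KD than in control (1.36 ± 0.28) and higher in delta45 than in KD (0.83 ± 0.24), and Gm17229 had 0 to 3 reads per group. On the Hbs1l side Aldh8a1 had 2 to 6 reads per group and 1700020N01Rik had none. Between them, 1700021A07Rik, a long noncoding RNA gene 50.5 kb beyond Hbs1l, was read at 8.53 to 9.11 CPM in control (321 reads) and had 0 reads in KD, delta45 and FL. Against a floor of 3 reads over a group, it was at least 103-fold lower in KD, at least 148-fold lower in delta45 and at least 104-fold lower in FL. Those 3 groups share the knockdown, and in FL Ldb1 was above control. Whether a line was 1 clone is not given, so the knockdown and other differences of the lines from control cannot be told apart.

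Within 1000 kb of the locus 20 further genes had a row in the files, 11 of them were tested and 4 had no reads. Of the 11, 3 rose and 2 fell in FL against KD, near the 26.3% and 31.7% of all tested genes. Among the 3, the pseudogene Gm4895 (0.67 ± 0.18), was named after its values were seen and lost its call with library totals (0.39, edgeR adjusted p = 0.0998). The 2 that fell, named after their values were seen, were Mtfr2 (-2.72 ± 0.20), a mitochondrial gene 591 kb away, and Sgk1 (-1.28 ± 0.35), a kinase gene 513 kb away. Without KD replicate 1 the values were -2.50 for Mtfr2 and -0.64 for Sgk1, both called. In delta45 against KD 5 rose and 0 fell by edgeR (29.2% and 30.7% of all genes), with 0 lower at an unadjusted p under 0.05. Bclaf1, a transcription regulator also chosen after its values were seen, rose in KD against control (0.84 ± 0.13) and further in delta45 (1.17 ± 0.13). The genes nearest to Mybl2 were Ift52, which differed by -0.10 ± 0.12 between FL and KD (edgeR adjusted p = 0.499), and Gtsf1l, with 1 read in all. Beside Mybl1, 2610203C22Rik had no reads, and Vcpip1 was lower in KD than in control (-0.98 ± 0.17) and rose in FL (1.11 ± 0.17) and in delta45 (1.37 ± 0.17) against KD. The other neighbour genes named here as called against KD, or in KD against control, kept their direction and call without KD replicate 1.

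**Figure D5:**
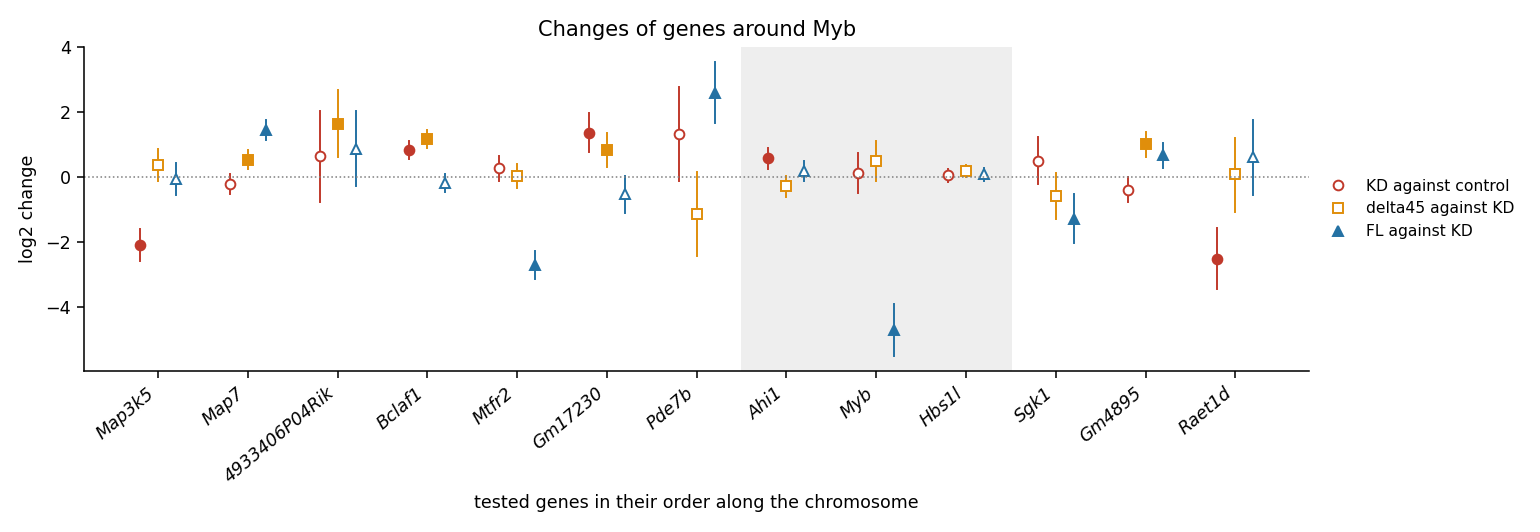
Log2 change of the tested genes around Myb, in their order along the chromosome, for 3 comparisons; points are edgeR estimates, lines are 95% intervals, filled points are called, the shaded band holds Ahi1, Myb and Hbs1l, and 1700021A07Rik is left out because it had reads in control alone. In FL against KD, Myb lies at -4.72 between Ahi1 at 0.19 and Hbs1l at 0.08, the latter 2 being -0.09 and -0.19 with library totals as scaling.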

How the data were processed

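RNA from 12 libraries (4 groups of 3) was analysed from the whole-number read counts per Ensembl gene that the authors deposited. The submitters' processing notes name cutadapt 1.1, TopHat 1.4.1, HTSeq 0.5.3p9, DESeq 1.10.1 and mm9, without order, settings or annotation. Per the labels' protocols the kit was TruSeq RNA V2, which does not mark strand. The closing rows that name no gene were left out: reads aligned to several places (38.69 to 53.31% per library), outside genes (2.117 to 6.133%) or ambiguous (1.33 to 1.809%). A member's level therefore rests on uniquely aligned reads. Symbols from the supplied table matched 32919 of 37991 gene IDs.

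In R 4.3.3 with edgeR 4.0.16, filterByExpr left 12837 genes, libraries were scaled by TMM, and all 12 entered 1 quasi-likelihood fit with group as the term. Benjamini-Hochberg adjustment ran over all tested genes, with a threshold of 0.05. The SE is the absolute log2 change over the square root of F. Scripts were tested on simulated data. Alternatives were RLE scaling, library totals, no or a stricter filter (2 CPM in 3 libraries), DESeq2 1.42.0, only the groups compared, a replicate block, and leaving out each library. Replicates of every group differed by more than sampling noise (chi-square over its degrees of freedom at least 2.223).

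Named genes were the members, Ldb1, the 3 nearest genes with a row on each side of the locus (1 on each side of the paralogs), up to 4 genes per list and comparison by adjusted p, and the genes most alike in profile. Members and lists were chosen with earlier results of these data known. Promoters are from RefSeq on GRCm38.p6, which held 5 promoters for 4 members, and were searched over 250 bases before the start. Positions and exon lengths are from GENCODE M21. Count columns of no sample numbered 0.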

Additional observations from a re-analysis of the deposited data

How the results depend on the processing

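The falls of Myb and Mybl2 in FL, against KD, delta45 and control, kept their direction and call in every alternative. Over the members, 199 of 210 results with another setting and 337 of 360 with 1 library left out kept both. Scaling by library totals turned Hbs1l in FL against KD to -0.19 and against control to -0.09, turned Ahi1 in FL against KD to -0.09, made Hbs1l in FL against delta45 a call (-0.39) and ended that of Ahi1 (0.21). Without the low-count filter Myb in delta45 against control became a call (0.62) and that of Hbs1l was lost (0.25). With only the groups compared Myb (0.61) and Ahi1 (0.28) in delta45 against control became calls and Mybl1 in FL against KD lost its call (-1.20). DESeq2 called Hbs1l in delta45 against KD (0.20). The cause was not tested.

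With 1 library left out, values in KD against control ran from -0.43 to 0.43 for Myb and -1.15 to 0.09 for Mybl1. In FL against KD they ran from 0.11 to 0.44 for Ahi1 and -1.63 to -0.34 for Mybl1. In delta45 against KD they ran from 0.18 to 1.07 for Myb, 0.18 to 0.23 for Hbs1l and 0.09 to 0.36 for Mybl2. In FL against delta45 Ahi1 ran from 0.43 to 0.60, and in FL against control Mybl1 ran from -1.73 to -1.17. In delta45 against control the ranges were 0.56 to 0.71 for Myb, 0.19 to 0.30 for Hbs1l, 0.21 to 0.38 for Ahi1 and 0.99 to 1.52 for Mybl1.

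Same-numbered libraries did not deviate together throughout (r of -0.196 to 0.269 over 18 pairs, 9 over 0.1). All negative values were in pairs with control, while pairs among KD, delta45 and FL ran from 0.0315 to 0.248. Libraries with different numbers were not compared, so whether the numbers pair the samples cannot be decided from these values. With the replicate block Myb in FL against KD was -4.63, and no member's call changed. Of 1596 list counts across alternatives, 104 moved by more than 1.5 times. Myb in FL rests on 26 to 35 reads per library, which limits the precision of its fold.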
